A study of Homo sapiens with 4 samples.

Results

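The 41 genes described here encode the folding, translocation and quality control machinery of the endoplasmic reticulum (ER): chaperones and their cofactors, disulfide isomerases, the translocation channel, ER-associated degradation (ERAD) components, and the stress sensors that control many of them. They were listed by function, without the ATF4 branch of the stress response, and each of the 41 symbols matched 1 of the 60671 Ensembl genes in the deposited files. The list was drawn up with the changes of a broader stress list in these same libraries known, so its counts and medians are a description and not independent evidence. RNA was sequenced from 22RV1 cells and PC3 cells, which are established lines of human prostate carcinoma, carrying either a non-targeting short hairpin RNA (shCON) or an shRNA against the DEAD-box RNA helicase DDX52 (shDDX52). Each shRNA was a single sequence delivered by lentivirus into cells selected with puromycin, and each of the 4 conditions had 1 library. No difference between these libraries therefore has a replicate check, no p-value was computed, and a culture or library effect cannot be told apart from the shRNA.

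Proteins that enter the secretory pathway cross the ER membrane through the SEC61 channel, lose their signal peptide, receive glycans and disulfide bonds, and fold with the help of HSPA5 (BiP) and other lumenal chaperones. Proteins that fail to fold are returned to the cytosol and degraded. When folding capacity falls short, the sensors ERN1 (IRE1) and ATF6 raise transcription of chaperone and degradation genes through the factors XBP1 and cleaved ATF6, which is the unfolded protein response. Luminal cells of the prostate are secretory and rely on this machinery. Splicing of XBP1 mRNA and cleavage of ATF6 protein, which mark activity of the pathway, cannot be read from gene-level values.

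Values are TPM, transcript abundance corrected for gene length and given as a share of each library. The deposited TPM summed to between 984448 and 990860 per library, and read depth is unknown, so no counting interval is given. Changes are given as log2((TPM shDDX52 + 1) / (TPM shCON + 1)), called the log2 ratio. A gene was compared in a cell line if the shCON or the shDDX52 library had at least 1 TPM for it, and the added 1 TPM makes the log2 ratio of low genes too small. DDX52 itself was at 4.88 TPM (shCON) and 1.20 TPM (shDDX52) in 22RV1, and 9.20 and 2.07 TPM in PC3, so the targeted mRNA was at 24.6% and 22.5% of its control. CAV1, a marker of PC3 cells, was 0.450 and 0.390 TPM in 22RV1 and 162 and 130 TPM in PC3. Genes annotated as rRNA took 1.21% of the control and 0.0872% of the knockdown library in 22RV1, against 0.0923% and 3.13% in PC3, and a rescaling without them is given with the PC3 results. Mitochondrially encoded genes took 9.81% and 13.0% in 22RV1 and 8.10% and 10.3% in PC3, shCON before shDDX52, and were thus higher in both knockdown libraries. Over all genes compared, the median log2 ratio was −0.076 in 22RV1 and −0.036 in PC3.

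In 22RV1 cells nearly the whole ER list was lower with shDDX52. Of the 40 genes with at least 1 TPM, 37 were lower and 3 were higher, where 58.8% of all 14438 genes compared were lower and 40.9% higher. The median log2 ratio of the list was −0.45, and 17 of the 40 lay in the lowest 10% of all genes compared, with 0 in the highest 10%. With a pseudocount of 0.1 TPM, 8 of the 40 lay in the lowest 10%. The summed TPM of the 41 genes was 9579 with shCON and 6975 with shDDX52, which is 72.8% of the control. On TPM rescaled without mitochondrial genes and the 20 highest genes, the median log2 ratio was −0.39. At least 1.5-fold lower were 12 of the 40: HSPA5, HSP90B1, DNAJB11, UGGT1, PDIA4, PDIA6, P4HB, XBP1, ERN1, HERPUD1, DERL3 and SSR3. The background is 8.47% of all genes at least 1.5-fold lower. None of the 40 was at least 1.5-fold higher, against 5.61% of all genes. The count of 12 was 6 once log2 ratios were centred on the median of all genes, where 6.43% of genes were that much lower. HERPUD1 was the single gene of the list at least 2-fold lower, against 2.86% of all genes, and 0 were at least 2-fold higher, against 2.24%.

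In PC3 cells the same list was divided. Of 39 genes compared, 25 were lower and 14 higher with shDDX52, with 53.5% of all 14262 genes lower and 46.3% higher, and the median log2 ratio was −0.12. The summed TPM was 7629 with shCON and 6766 with shDDX52, or 88.7% of the control. Only SPCS2 was at least 1.5-fold lower and only SEL1L at least 1.5-fold higher, where 9.84% and 8.95% of all genes were. The latter count was 3 with nuclear protein-coding scaling, 2 after centring on the median of all genes, and 0 with a filter of 10 TPM. None was 2-fold lower or 2-fold higher, against 3.44% and 2.86% of all genes. The sign of the PC3 median depended on the scaling: when nuclear protein-coding genes alone set the TPM scale it was 0.014, with 18 of the 39 genes lower, while the median of all genes moved from −0.036 to 0.087. Relative to the median of all genes, the list was at −0.079 as deposited and at −0.073 on that scale.

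Across both cell lines, 24 of 39 genes (61.5%) were lower in each, against 32.5% of the 12175 genes compared in both. A further 12 (30.8%) were lower in 22RV1 and higher in PC3, near the background of 27.4%, and 1 gene, SPCS2, was higher in 22RV1 and lower in PC3, where 21.4% of genes were. SSR4 and SPCS3 were higher in both, where 18.5% of genes were. The counts of 24 and 12 depend on the scaling, and that of 24 also on 22RV1, where nearly all of the list was lower. With nuclear protein-coding scaling, CALR, OS9, PDIA6, SDF2L1, SPCS1, SSR1 and SYVN1 were above 0 in PC3 and still lower in 22RV1. Shares of all genes by their change in both lines were not computed on that scale. In PC3 alone, 64.1% of the list was lower as deposited, against 53.5% of all genes. At least 20% lower in both as deposited, on the TPM + 1 scale, were 8 genes (20.5%), against 5.24% of all genes: DNAJB11, DNAJC3, P4HB, MANF, CRELD2, SEC61B, SEC61G and SERP1. This count also depends on the scaling. With nuclear protein-coding scaling, only DNAJB11 (−0.37) and DNAJC3 (−0.34) of these still reached that cut in PC3. CRELD2 (−0.31), SEC61B (−0.29), SERP1 (−0.28), MANF (−0.26), P4HB (−0.24) and SEC61G (−0.21) did not. The log2 ratio in PC3 exceeded that in 22RV1 for 32 of the 39 genes, where 53.5% of all genes did so, and was below it for 7, against 46.5%. The median difference was 0.30 against 0.043 over all genes. The PC3 log2 ratio was the higher one by at least 1.5-fold for 10 genes, against 14.3% of all genes, and by at least 2-fold for UGGT1, HERPUD1 and SEL1L, against 4.5%. SPCS2 alone lay as far the other way, against 9.73% of genes at 1.5-fold and 3.1% at 2-fold. With 1 library per condition this difference between the cell lines was not tested.

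**Figure D1:**
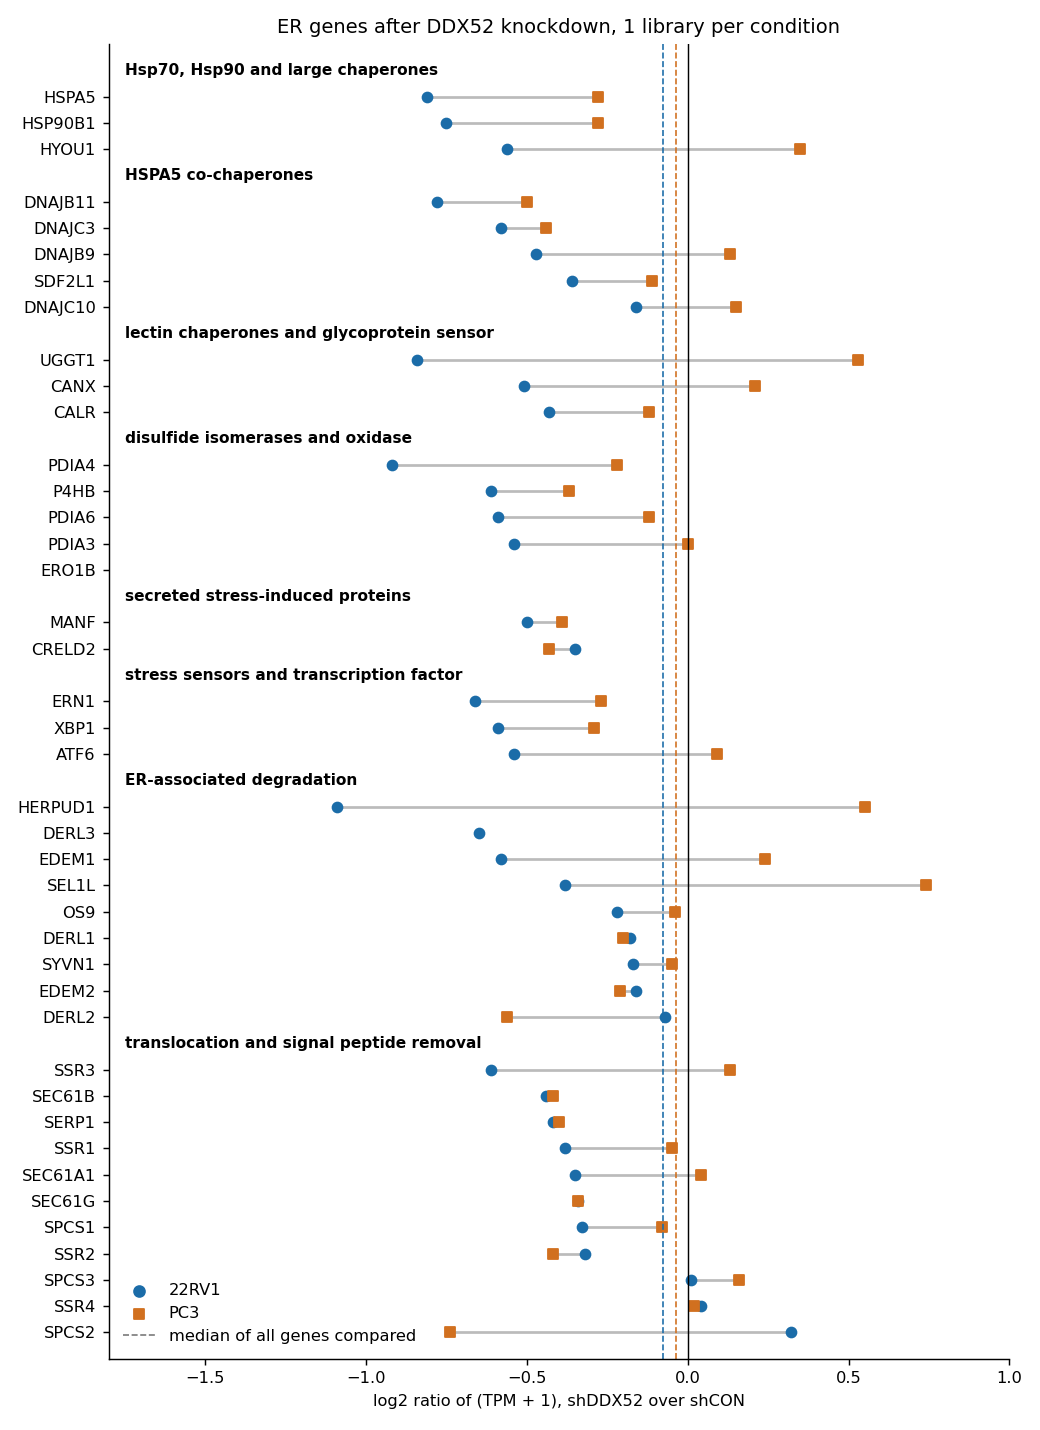
Log2 ratio of (TPM + 1), shDDX52 over shCON, for each ER gene in 22RV1 (circles) and PC3 (squares), grouped by role, with dashed lines at the median of all genes compared in each cell line. Most circles lie left of the 22RV1 line at −0.076, while squares lie on both sides of 0 and of the PC3 line at −0.036. The ER genes alone had a PC3 median of −0.12 as deposited and 0.014 with nuclear protein-coding scaling. ERO1B and, in PC3, DERL3 were under 1 TPM and are not drawn.

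**Figure D2:**
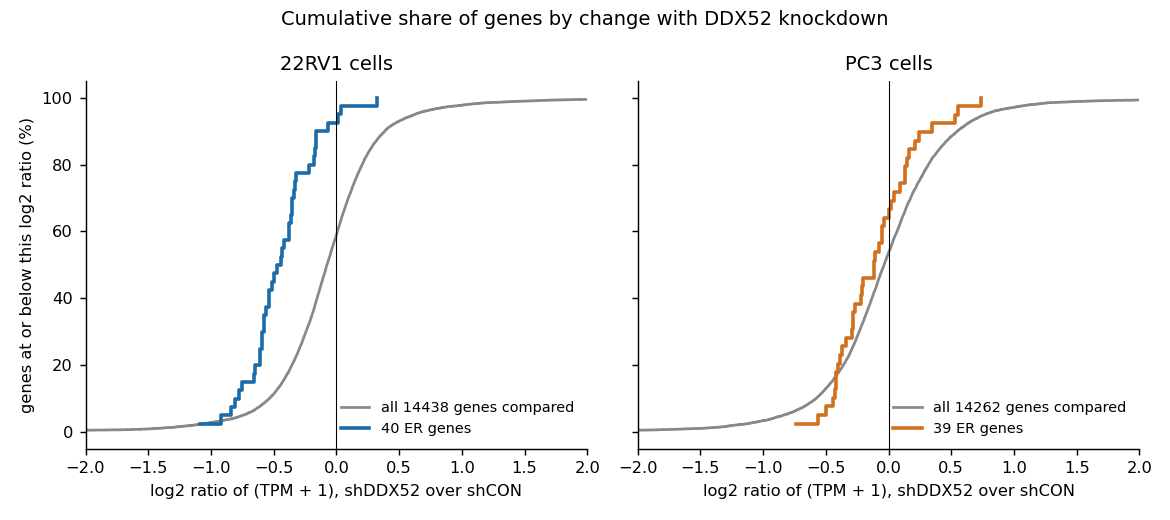
Cumulative share of genes (percent) by log2 ratio of (TPM + 1), for the ER genes (coloured) and all genes compared (grey) in each cell line. The ER curve lies well to the left of the grey curve in 22RV1, with 37 of 40 genes under 0, and close to it in PC3, with 25 of 39 under 0 as deposited and 18 with nuclear protein-coding scaling.

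The 3 large chaperones were lower together in 22RV1, and their summed TPM was 60.4% of the control, the lowest share of the 8 role groups. HSPA5 (ENSG00000044574) encodes BiP, the ER Hsp70 that binds unfolded chains and holds the stress sensors inactive. In 22RV1 its level was 414 TPM in the shCON library and 235 TPM in the shDDX52 library, and in PC3 it was 280 and 231 TPM. The log2 ratios were −0.81 and −0.28, so the 22RV1 difference was the larger. HSP90B1, the ER Hsp90 known as GRP94, followed the same order, with 490 and 292 TPM in 22RV1 and 397 and 327 TPM in PC3, log2 ratios of −0.75 and −0.28. HYOU1, a large Hsp70 relative that exchanges nucleotide on HSPA5, was 264 and 179 TPM in 22RV1 but 143 and 182 TPM in PC3. Its log2 ratio was −0.56 in 22RV1 and 0.35 in PC3, so HYOU1 alone among these chaperones was higher in PC3 with shDDX52.

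Promoters of these genes are known to carry the ER stress element (ERSE), CCAAT and CCACG with 9 bases between them, bound by NF-Y and ATF6, or the shorter ERSE-II, ATTGG and CCACG with 1 base between them. The 250 bases before the start site, from RefSeq on GRCh38.p14, are printed 5′ to 3′ on the gene's strand for the chaperones that hold exact matches on either strand, with the matches in capitals. The HSPA5 window is chr9:125241344-125241593 on the minus strand, that of HSP90B1 is chr12:103930160-103930409 on the plus strand, and that of HYOU1 is chr11:119057206-119057455 on the minus strand. HSPA5 held 1 exact ERSE, HSP90B1 held 2, and HYOU1 held 2 ERSE-II.
HSPA5: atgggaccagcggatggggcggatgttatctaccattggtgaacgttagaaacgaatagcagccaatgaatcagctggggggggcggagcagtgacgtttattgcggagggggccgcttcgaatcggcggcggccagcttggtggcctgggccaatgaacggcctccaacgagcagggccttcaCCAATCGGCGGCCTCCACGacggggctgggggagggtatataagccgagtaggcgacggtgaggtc
HSP90B1: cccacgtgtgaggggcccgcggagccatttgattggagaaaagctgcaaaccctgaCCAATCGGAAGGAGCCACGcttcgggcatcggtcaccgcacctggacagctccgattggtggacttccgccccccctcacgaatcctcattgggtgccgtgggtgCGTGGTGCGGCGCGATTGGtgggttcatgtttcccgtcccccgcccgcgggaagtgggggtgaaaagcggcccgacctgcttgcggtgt
HYOU1: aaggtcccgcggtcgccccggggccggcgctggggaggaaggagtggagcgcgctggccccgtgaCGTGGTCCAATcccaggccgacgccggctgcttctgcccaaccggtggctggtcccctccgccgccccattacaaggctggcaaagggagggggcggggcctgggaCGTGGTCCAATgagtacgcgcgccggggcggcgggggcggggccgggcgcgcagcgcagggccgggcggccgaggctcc

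The 5 cofactors of HSPA5 were all lower in 22RV1, with a median log2 ratio of −0.47, and spread on both sides of 0 in PC3, where their median was −0.11 as deposited and 0.015 with nuclear protein-coding scaling. DNAJB11 (ERdj3), a J protein that hands unfolded clients to HSPA5, was 84.5 and 48.6 TPM in 22RV1 and 117 and 82.2 TPM in PC3, shCON first. With log2 ratios of −0.78 and −0.50, it was among the lower genes in both cell lines. DNAJC3 (P58IPK), a J protein that binds unfolded chains, was 10.5 and 6.71 TPM in 22RV1 and 6.73 and 4.69 TPM in PC3, which gave −0.58 and −0.44. SDF2L1, a partner of DNAJB11, was 426 and 331 TPM in 22RV1 and 270 and 250 TPM in PC3. Its log2 ratios of −0.36 and −0.11 were smaller, and the PC3 value was 0.015 with nuclear protein-coding scaling. DNAJB9 (ERdj4), which targets HSPA5 to misfolded proteins and to ERN1, was low in all libraries at 2.65 and 1.64 TPM in 22RV1 and 3.39 and 3.79 TPM in PC3. DNAJC10 (ERdj5), a reductase that opens disulfide bonds before degradation, had log2 ratios of −0.16 and 0.15 at levels between 6.87 and 19.6 TPM.

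Among the lectin chaperones, which hold glycoproteins through their sugar chains, the cell lines gave medians of opposite sign, −0.51 in 22RV1 and 0.21 in PC3. CALR, the soluble lectin calreticulin, had the highest level of the 41 genes in every library, at 1905 and 1413 TPM in 22RV1 and 1689 and 1556 TPM in PC3. It was lower with shDDX52 in both, by log2 ratios of −0.43 and −0.12, although the PC3 value was 0.012 with nuclear protein-coding scaling. CANX, the membrane lectin calnexin, was 165 and 116 TPM in 22RV1 and 112 and 130 TPM in PC3. UGGT1, which re-tags incompletely folded glycoproteins for another round with the lectins, was 7.71 and 3.88 TPM in 22RV1, or 50.3% of the control, and 10.6 and 15.7 TPM in PC3, or 148%. The gap between its log2 ratios of −0.84 and 0.53 was second only to that of HERPUD1.

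The protein disulfide isomerases, which form and rearrange disulfide bonds, were lower as a block in 22RV1, where the 4 genes compared had log2 ratios from −0.92 to −0.54. PDIA4 (ERp72) was 430 and 227 TPM in 22RV1, 52.8% of the control, and 252 and 217 TPM in PC3, 85.9%. P4HB, the archetypal isomerase PDI, was 637 and 418 TPM in 22RV1 and 530 and 409 TPM in PC3, with log2 ratios of −0.61 and −0.37. PDIA6 was 249 and 165 TPM in 22RV1 and 261 and 241 TPM in PC3. These isomerases were lower in both cell lines, with the PDIA6 value in PC3 moving from −0.12 to 0.014 under nuclear protein-coding scaling. PDIA3 (ERp57), the isomerase that works with the lectins, was 411 and 282 TPM in 22RV1, a log2 ratio of −0.54, but 460 and 461 TPM in PC3. ERO1B, an oxidase that recharges the isomerases, was between 0.490 and 0.890 TPM in the 4 libraries and was not compared.

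MANF and CRELD2 encode small ER proteins that are induced by stress and can be secreted, and they were lower by similar amounts in both cell lines. MANF, a neurotrophic factor that binds HSPA5, was 650 and 461 TPM in 22RV1 and 303 and 231 TPM in PC3, with log2 ratios of −0.50 and −0.39. CRELD2 was 408 and 319 TPM in 22RV1 and 66.0 and 48.7 TPM in PC3, with log2 ratios of −0.35 and −0.43. It was 1 of the 7 genes whose log2 ratio was lower in PC3 than in 22RV1. Their role group had summed TPM at 73.7% of the control in 22RV1 and 75.9% in PC3, the nearest match between the lines apart from the translocation genes.

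The sensors and their transcription factor showed the 22RV1 pattern at lower levels. XBP1, the factor made active by ERN1 splicing, was 97.7 and 64.8 TPM in 22RV1 and 83.7 and 68.4 TPM in PC3, with log2 ratios of −0.59 and −0.29. ERN1, the kinase and ribonuclease IRE1, was 3.05 and 1.57 TPM in 22RV1 and 8.59 and 6.93 TPM in PC3, with log2 ratios of −0.66 and −0.27. ATF6, the membrane-bound precursor of the other factor, was 3.88 and 2.36 TPM in 22RV1 and 9.79 and 10.5 TPM in PC3. All 3 were thus lower in 22RV1, while in PC3 XBP1 and ERN1 were lower and ATF6 was 0.09 higher on the log2 scale. ERN1 and ATF6 were at most 10.5 TPM in each library, so the added 1 TPM weighs on their log2 ratios.

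**Figure D3:**
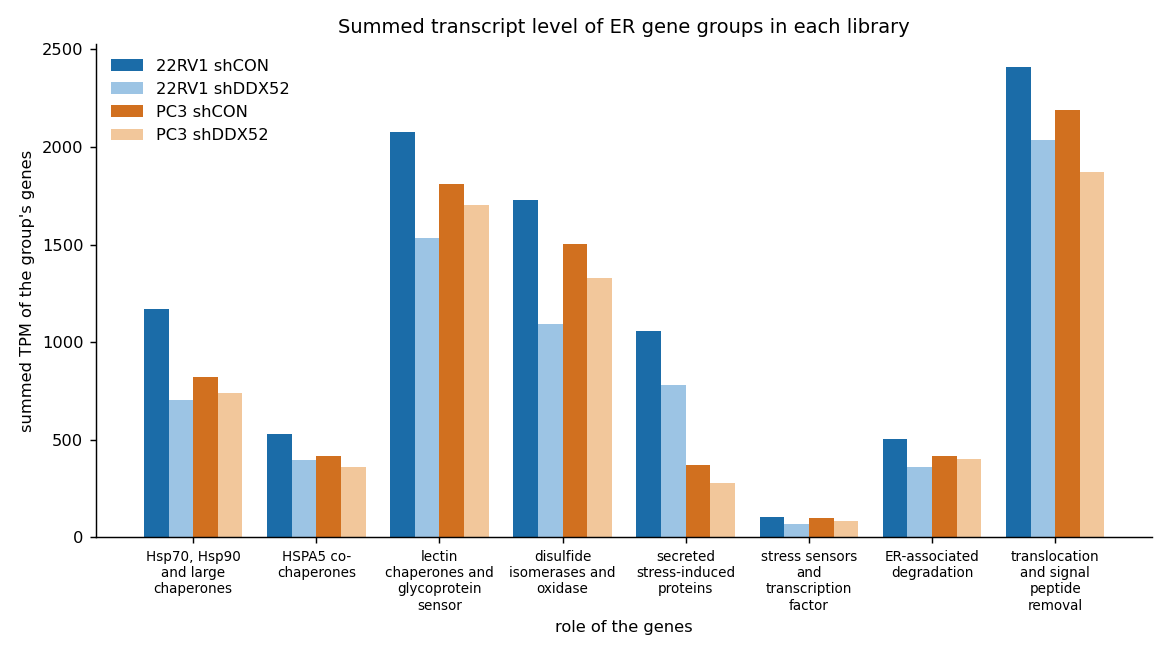
Summed TPM of each role group (bars, linear axis from 0) in the 4 libraries, 1 library per bar and no error bar. In 22RV1 each of the 8 groups was lower with shDDX52, from 60.4% of the control for the large chaperones to 84.7% for translocation, and in PC3 the sums ranged from 75.9% to 95.8%, on the TPM scale as deposited.

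The ERAD genes, which recognise, extract and ubiquitinate misfolded proteins, held both the lowest value of the list and the widest disagreement between the cell lines. HERPUD1 (ENSG00000051108), a membrane scaffold of the SYVN1 ligase complex and a classical stress target, was 164 and 76.5 TPM in 22RV1 and 29.8 and 44.2 TPM in PC3. That is 46.6% of the control in 22RV1 and 148% in PC3, with log2 ratios of −1.09 and 0.55, at percentiles 2.30 and 90.2 of all genes compared. SEL1L, the adaptor that stabilises SYVN1, was 6.32 and 4.63 TPM in 22RV1 and 4.48 and 8.14 TPM in PC3, where its log2 ratio of 0.74 was the highest of the list. EDEM1, which trims mannose on proteins bound for degradation, was 9.0 and 5.71 TPM in 22RV1 and 6.52 and 7.88 TPM in PC3. HERPUD1, SEL1L and EDEM1 were therefore each lower in 22RV1 and higher in PC3 with shDDX52. Of the derlins, which help form the exit channel, DERL3 was 31.7 and 19.9 TPM in 22RV1 but listed at 0 and at 0.0200 TPM in the PC3 libraries. DERL2 was nearly level in 22RV1 and lower in PC3, at 25.0 and 23.7 TPM in 22RV1 and 51.2 and 34.4 TPM in PC3, log2 ratios of −0.07 and −0.56, of which the first was 0.0029 after centring. The rest were the ligase SYVN1, the lectin OS9, EDEM2 and DERL1. Their log2 ratios were between −0.22 and −0.16 in 22RV1 and between −0.21 and −0.04 in PC3. With nuclear protein-coding scaling, the PC3 values were 0.081 for SYVN1 and 0.09 for OS9. The PC3 median of the ERAD group was −0.042 as deposited and 0.086 on that scale.

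HERPUD1 held 1 exact ERSE-II, in capitals in the 250 bases before its start, chr16:56931892-56932141 on the plus strand of GRCh38.p14. CRELD2, whose log2 ratio was similar in both lines, held 1 ERSE, read on the other strand, in chr22:49918384-49918633 on the plus strand.
HERPUD1: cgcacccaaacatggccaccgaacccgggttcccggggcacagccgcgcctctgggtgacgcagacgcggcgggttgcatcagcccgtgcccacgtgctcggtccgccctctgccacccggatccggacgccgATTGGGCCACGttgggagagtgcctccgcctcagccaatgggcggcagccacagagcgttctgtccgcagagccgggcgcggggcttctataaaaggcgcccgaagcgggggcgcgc
CRELD2: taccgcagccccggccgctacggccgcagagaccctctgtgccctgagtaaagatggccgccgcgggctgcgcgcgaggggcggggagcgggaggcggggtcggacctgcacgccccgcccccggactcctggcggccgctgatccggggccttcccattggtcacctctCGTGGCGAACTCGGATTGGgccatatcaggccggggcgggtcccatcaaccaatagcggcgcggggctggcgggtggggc

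The translocation and signal peptidase genes kept the largest share of their control sum in 22RV1, 84.7%, and 85.4% in PC3. Their median log2 ratio was −0.34 in 22RV1 and −0.084 in PC3, the latter 0.045 with nuclear protein-coding scaling. Of the SEC61 channel, the pore subunit SEC61A1 was 206 and 161 TPM in 22RV1 and 139 and 143 TPM in PC3. The small subunits SEC61B and SEC61G were lower by nearly the same amount in each cell line, with log2 ratios of −0.44 and −0.42 for SEC61B and of −0.34 and −0.34 for SEC61G. SERP1, which protects nascent membrane proteins at the channel, was likewise −0.42 and −0.40. The translocon-associated subunits, which assist certain signal peptides, were not lower as a unit. SSR2 was 733 and 587 TPM in 22RV1 and 404 and 302 TPM in PC3, lower in both. SSR3 was 65.3 and 42.4 TPM in 22RV1 but 130 and 142 TPM in PC3. SSR4 was nearly level, at 507 and 521 TPM in 22RV1 and 423 and 428 TPM in PC3. SSR1 had log2 ratios of −0.38 and −0.05, the latter 0.079 with nuclear protein-coding scaling. Of the signal peptidase subunits, SPCS1 was 251 and 199 TPM in 22RV1 and 135 and 128 TPM in PC3, where its log2 ratio of −0.08 was 0.045 on that scale, and SPCS3 lay between 18.1 and 20.3 TPM in all 4 libraries. SPCS2 was the exception of the list, higher in 22RV1 at 62.1 and 77.8 TPM and lower in PC3 at 138 and 82.3 TPM. Its log2 ratios were 0.32 and −0.74.

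SPCS2 is shown as a window without a match, chosen for its values, and PDIA4, UGGT1 and DNAJB11, among the lowest genes in 22RV1, held no exact element either. No exact ERSE or ERSE-II lay in its 250 bases, chr11:74949016-74949265 on the plus strand of GRCh38.p14.
SPCS2: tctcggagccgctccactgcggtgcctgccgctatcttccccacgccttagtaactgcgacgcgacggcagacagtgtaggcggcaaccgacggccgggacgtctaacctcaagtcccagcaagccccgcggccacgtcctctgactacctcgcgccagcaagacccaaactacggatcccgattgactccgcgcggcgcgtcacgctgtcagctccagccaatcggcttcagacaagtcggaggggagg

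Exact elements were counted over the same windows for all genes with a RefSeq window. Of the 41 genes 37 had one, and PDIA3, DERL1, DERL3 and SPCS1 did not. On both strands, 9 of the 37 held an ERSE and 3 held an ERSE-II, in all 12 genes or 32.4%, where 0.157% of 27305 genes did. These 12 were HSPA5, HSP90B1, HYOU1, SDF2L1, CALR, CANX, PDIA6, ERO1B, CRELD2, XBP1, HERPUD1 and SERP1. Promoters of such genes were already known to carry these elements, so the larger share is not independent evidence. The related XBP1 motif TGACGTGG was in 4 of the 37 (10.8%) and in 0.780% of genes, and the letters CCACG alone, which are part of both elements and overlap TGACGTGG on the other strand, were in 75.7% and 37.5%. In 22RV1 all 11 genes of the list with an element and at least 1 TPM were lower with shDDX52, with log2 ratios from −1.09 to −0.35 and a median of −0.56, but so were 22 of the 25 without one, where 58.8% of all genes were lower. The 25 had a median of −0.38 and ranged from −0.92 to 0.32, so the groups overlapped. In PC3 the medians were −0.12 and −0.048, with the genes holding an element ranging from −0.43 to 0.55. Outside the list, 17 genes with an element had a median of −0.23 in 22RV1, against −0.082 for 10162 genes without, and 19 had a median of 0.028 in PC3, against −0.035. A match is a description of the letters in this window and was not tested as a binding site.

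**Figure D4:**
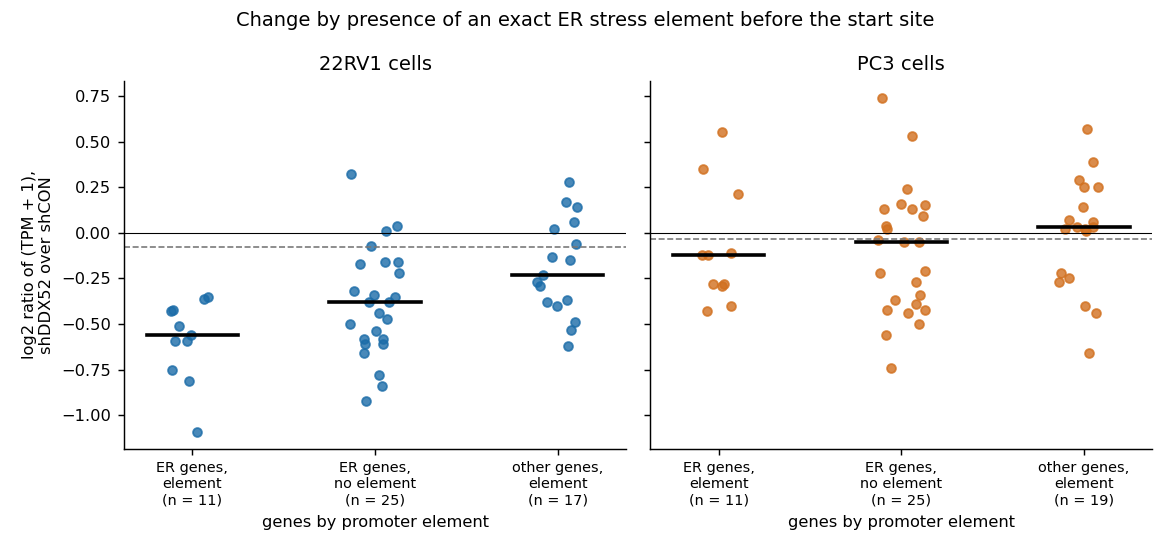
Log2 ratio of (TPM + 1), shDDX52 over shCON, for ER genes with and without an exact ERSE or ERSE-II in the 250 bases before the start and for other genes with one (points are genes, bars medians, dashed line the median of all genes compared). In 22RV1 the ER genes with an element have a median of −0.56 against −0.38 without, with overlapping points, and in PC3 the medians are −0.12 and −0.048.

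Between the control libraries, a smaller share of the ER genes than of all genes differed by at least 1.5-fold or 2-fold in either direction. These comparisons share the shCON libraries with those above. In 22RV1 shCON the 41 genes summed to 9579 TPM and in PC3 shCON to 7629 TPM, and the median log2 difference over 40 genes was 0.20, against 0.067 over all genes compared. Of the 40, 21 were higher in 22RV1 and 19 in PC3, near the 52.3% and 47.6% of all 15727 genes. At least 2-fold higher in 22RV1 were 4 of the 40, where 21.3% of all genes were: CRELD2 at 408 against 66.0 TPM, HERPUD1 at 164 against 29.8 TPM, MANF at 650 against 303 TPM, and DERL3 at 31.7 TPM against a listing of 0. At least 2-fold higher in PC3 were 7 of the 40 (17.5%), with 19.9% of all genes: ERN1, ATF6, DERL1, SPCS2, DNAJC10, EDEM2 and DERL2. PC3 thus carried more ERN1 (8.59 against 3.05 TPM) and ATF6 (9.79 against 3.88 TPM), and the degradation genes were divided, with HERPUD1 and DERL3 higher in 22RV1 and DERL1, EDEM2 and DERL2 higher in PC3. At 1.5-fold the counts were 9 higher in 22RV1 and 9 higher in PC3, where 32.2% and 29.3% of all genes were, and CALR, PDIA3, PDIA6, OS9 and SPCS3 were among the genes within that range.

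**Figure D5:**
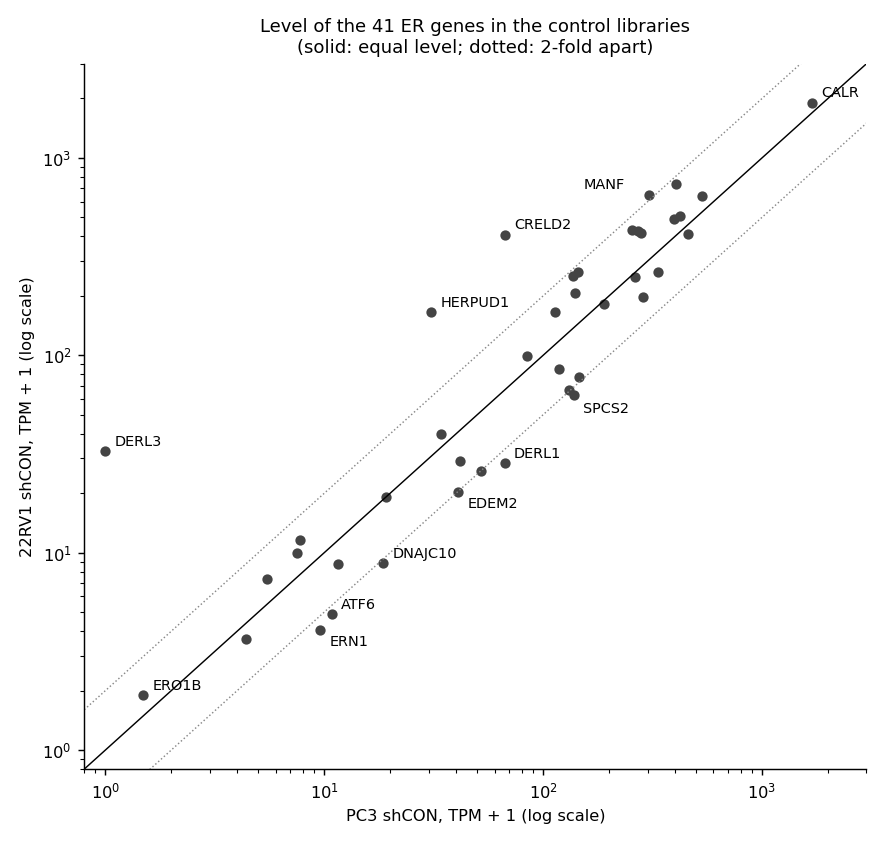
Level of the 41 ER genes in the control libraries, PC3 shCON on the x axis and 22RV1 shCON on the y axis, as TPM + 1 on log scales, with lines at equal level (solid) and 2-fold apart (dotted). CRELD2, HERPUD1 and DERL3 lie far above the equal line and ERN1, ATF6 and DERL1 below it, while most genes lie within 2-fold.

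Of 7 lists of further genes set by function, 6 were lower in 22RV1 to a smaller degree than the ER list. Their counts stand against 58.8% of all genes lower and 8.47% at least 1.5-fold lower in 22RV1, and 53.5% lower in PC3. Of 33 other folding enzymes, 27 were lower in 22RV1 with a median log2 ratio of −0.29, and 2 were at least 1.5-fold lower. RCN1, a calcium-binding lumenal protein, was 43.1 and 25.4 TPM, and TXNDC5, another disulfide isomerase, 80.2 and 50.2 TPM. In PC3, 16 of the 33 were lower, and the median was 0.0011. Of 29 other translocation genes, 24 were lower in 22RV1 (median −0.17) and 17 in PC3 (median −0.13), where SEC63, the HSPA5-recruiting partner of the channel, was 14.9 and 8.38 TPM. Of 33 N-glycosylation genes, 30 were lower in 22RV1 (median −0.17) and 20 in PC3 (median −0.039). STT3B, a catalytic oligosaccharyltransferase subunit, was among the lowest of them of at least 10 TPM in both, with log2 ratios of −0.76 and −0.42, and GANAB, the glucosidase that trims new glycans, was the highest such gene in PC3 at 260 and 379 TPM.

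Against the same shares, 27 of 31 other ERAD genes were lower in 22RV1 (median −0.16), with 5 at least 1.5-fold lower, and 16 of 30 in PC3 (median −0.088). JKAMP was 12.0 and 5.93 TPM in 22RV1 and 53.6 and 38.9 TPM in PC3. Of 19 other stress regulators, 15 were lower in 22RV1 (median −0.27) and 10 in PC3 (median −0.057), and none of them reached a 1.5-fold difference in either line. ER to Golgi transport genes were lower in 36 of 40 cases in 22RV1 (median −0.23), most of all the cargo receptor subunit MCFD2 at 22.8 and 8.83 TPM, and in 26 of 40 in PC3 (median −0.074). The medians of these 6 lists lay nearer to 0 than the −0.45 of the ER list in 22RV1.

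The ATF4 branch, which responds to amino acid shortage as well as ER stress, came closest to the ER list in 22RV1 and parted from it in PC3. In 22RV1, 21 of its 22 genes were lower, with a median log2 ratio of −0.49, and 9 were at least 1.5-fold lower, against 58.8% and 8.47% of all genes. ASNS, asparagine synthetase, was 161 and 62.4 TPM and DDIT3 (CHOP) 44.9 and 25.9 TPM. In PC3, 14 of 20 genes were higher, against 46.3% of all genes, with a median of 0.19. At least 1.5-fold higher were 4 and at least 1.5-fold lower 3, against 8.95% and 9.84% of all genes. Furthest up among those with at least 10 TPM were DDIT4, at 57.4 and 115 TPM, and STC2, at 163 and 313 TPM. DDIT3, at 14.3 and 19.8 TPM, and ASNS, at 20.9 and 21.5 TPM, did not reach 1.5-fold, with log2 ratios of 0.44 and 0.04. The 5 lower genes there included GDF15, a secreted stress cytokine, at 43.6 and 16.9 TPM, and NUPR1 at 39.0 and 20.9 TPM. The ER list had a PC3 median of −0.12.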

How the data were processed

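Total RNA of 22RV1 and PC3 cells was sequenced by the authors' provider, and the authors deposited TPM values per Ensembl gene, 1 column for each of the 4 libraries. The submitters' processing notes name HISAT2, CASAVA and hg19; the counting program, annotation release and any filter are not given in the sources used here. Depth is not kept in TPM. Libraries were grouped by their titles. Symbols were matched to identifiers through a table of gene names, and all 41 matched. The members and lists were chosen with earlier results of these data known. Log2 ratios used a pseudocount of 1 TPM, and a gene entered a comparison when 1 or both of its libraries reached 1 TPM. The calculation of the log2 ratio and fold counts was run on simulated libraries with known 2-fold changes in genes well above the filter. That run checks the arithmetic alone, since it held no counting error, low genes among those changed, or change in composition. With 1 library per condition no test was made.

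Named genes followed a rule: all 41 genes, DDX52, cell line markers, the 2 genes furthest down and the 2 furthest up in each pathway list and cell line among those with at least 10 TPM, and ATF4, DDIT3 and ASNS. Not all of these are printed. Role groups, 7 pathway lists and 6 alternatives were used (pseudocount, 2 filters, 2 rescalings, centring). Gene types came from GENCODE 29 and promoter windows from RefSeq on GRCh38.p14, which is not the build named in the notes, so no coordinate refers to the deposited values. The protein C-termini that had been planned for description were not analysed here, and 1 cell line marker is not reported here. Tables were handled with pandas 2.3.3 and numpy 2.4.6 in Python 3.11.15, and plots drawn with matplotlib 3.10.9.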

Additional observations from a re-analysis of the deposited data

Results flagged for a closer look

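These results had opposite signs in the 2 cell lines with shDDX52. With 1 library per condition, the difference between the lines was not tested for any of them, and the values follow as log2 ratios, 22RV1 first. In the ERAD group they were HERPUD1 (−1.09 and 0.55), SEL1L (−0.38 and 0.74) and EDEM1 (−0.58 and 0.24). Among chaperones and cofactors they were HYOU1 (−0.56 and 0.35), CANX (−0.51 and 0.21), UGGT1 (−0.84 and 0.53), DNAJB9 (−0.47 and 0.13) and DNAJC10 (−0.16 and 0.15). Smaller PC3 values above 0 were those of PDIA3 (−0.54 and 0.0033), ATF6 (−0.54 and 0.088), SEC61A1 (−0.35 and 0.037) and SSR3 (−0.61 and 0.13). SPCS2 was the gene with the reverse order (0.32 and −0.74). Of the 39 genes compared in both lines, 30.8% were lower in 22RV1 and higher in PC3 as deposited. That share is near the background of 27.4% of all genes. With nuclear protein-coding scaling, CALR, OS9, PDIA6, SDF2L1, SPCS1, SSR1 and SYVN1 also had opposite signs, and the background was not computed on that scale.

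As deposited, the medians of 3 gene groups also had opposite signs: the lectin chaperones with UGGT1 (−0.51 and 0.21), the other ER folding enzymes (−0.29 and 0.0011) and the ATF4 branch (−0.49 and 0.19). The folding enzymes were nearly level in PC3, where 16 of 33 were lower. Which groups differ in sign depends on the scaling. With nuclear protein-coding scaling, the PC3 medians of the ERAD group (0.086), the HSPA5 cofactors (0.015) and the translocation group (0.045) were also above 0.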

How the results depend on the processing

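Across 105 results and 610 recomputed values, 545 kept their direction and moved by less than 0.1 on the log2 scale or stayed within 1.5 times for a count, 53 moved and 12 changed sign. The 22RV1 median log2 ratio lay between −0.47 and −0.38 under the 6 alternatives. Rescaling TPM over nuclear protein-coding genes changed the most, and moved the median of all genes in PC3 to 0.087. There the PC3 median of the list was 0.014, the log2 ratio of its summed TPM −0.043, and the median difference between the lines 0.41. Signs in PC3 also changed for CALR (0.012), OS9 (0.09), PDIA6 (0.014), SDF2L1 (0.015), SPCS1 (0.045), SSR1 (0.079) and SYVN1 (0.081), and for the medians of the ERAD group (0.086), the HSPA5 cofactors (0.015) and the translocation group (0.045). Centring on the median of all genes gave DERL2 in 22RV1 0.0029, and left 6 genes at least 1.5-fold lower in 22RV1 instead of 12. Genes at least 1.5-fold higher in PC3, 1 as deposited, were 3 with nuclear protein-coding scaling, 2 once mitochondrial genes and the 20 highest were left out, 2 after centring and 0 with a filter of 10 TPM, which leaves fewer genes. Apart from these the cause was not tested. No paired analysis was possible because no condition was repeated. Depth is unknown, so low genes such as DNAJB9, ERN1 and SEL1L carry an unknown counting error.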

Other observations

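Gene copies named as a gene of the list followed by P, with or without a number, were at low levels. Copies named otherwise were not looked for, and the type of each copy was not checked. Of the 12 such copies in the files, PDIA3P1 reached the highest level, at 4.0 TPM in PC3 shCON where PDIA3 was 460 TPM, and SPCS2P4 was at most 0.310 TPM. The handling of reads shared between copies is not given in the sources used here.

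Promoters with an exact element outside the list included 2 that overlap a window of the list: ALG12, on the opposite strand to CRELD2, and EIF2A, on the opposite strand to SERP1. ALG12, a mannosyltransferase, was at −0.38 (22RV1) and −0.22 (PC3) on the log2 scale, and CRELD2 had −0.35 and −0.43. EIF2A had −0.23 and −0.66, and SERP1 −0.42 and −0.40. FICD, the enzyme that attaches AMP to HSPA5, also held an element and had log2 ratios of −0.49 and 0.03. These genes were chosen after their values were seen.

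The markers of PC3 cells were not level between its libraries and did not move together. VIM was at 12.6 TPM in shCON and 66.7 TPM in shDDX52, AXL at 32.6 and 79.3 TPM, and CD44 at 571 and 664 TPM. CAV1 and ANXA1 were lower with shDDX52, at 162 and 130 TPM and at 137 and 94.3 TPM. The part of this in the ER values was not tested.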
